A study of Homo sapiens with 18 samples.

Results

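The genes described here are 39 components of the vesicle traffic between the endoplasmic reticulum (ER) and the Golgi, chosen by symbol from a count table of 60662 genes. They comprise 10 genes of the COPII coat, 2 scaffold genes of COPII assembly sites, 9 COPI coat subunits, 2 ARF GTPases with 1 of their activators, 5 p24 (TMED) cargo receptors, 5 lectin and KDEL receptors, and 1 tether with 4 SNAREs. All 39 symbols were found once each, and all 39 passed the filter on low counts.

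Their mRNA was measured by poly-A RNA sequencing of MCF10A, an established non-malignant human breast epithelial cell line, in 18 libraries: 2D or 3D culture at timepoints 1, 2 and 3, with 3 libraries in each of the 6 groups. In both cultures the cells were plated sparsely on the same compliant polyacrylamide gels coated with Matrigel, a basement membrane extract, in medium with horse serum, EGF, insulin, cholera toxin and hydrocortisone. The 2D cells then received this medium alone, whereas the 3D cells received it with 2% Matrigel, which set around them. Harvest was at 3, 12 and 21 h after plating, and these hours are matched to timepoints 1, 2 and 3 only by their order. The replicate number carries a date that is shared by all groups, and nothing in the labels says whether libraries came from separate cultures, so p-values measure only the spread between these samples. The third timepoint of 2D culture had 2 libraries in the fits, because the labels of replicate 1 list the raw table alone; values of that library are given separately.

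Library totals given in the file headers ran from 9.31 to 17.7 M, while the summed counts ran from 49.8 to 93.9 M (M, mega), so the counts are not single reads and levels are compared only within a gene. At timepoint 2 the ratio of summed counts to header total lay between 4.96 and 5.26 for 2D libraries but between 5.54 and 5.73 for 3D libraries, without overlap, and its part in the culture differences there was not tested beyond the other scaling given with them. The 10 epithelial markers examined, among them KRT5 and TP63, had counts in every library. Of 12 markers of other cells, CD3E and PGR were at 0 in all 18 libraries and PTPRC and COL1A2 were at 0 in 16. The summed level of the 12 ranged from 134 to 165 CPM (counts scaled to a common library size) at timepoint 1 in both cultures, from 171 to 265 CPM (2D) and from 135 to 230 CPM (3D) at timepoint 2, and from 169 to 309 CPM and 171 to 283 CPM at timepoint 3. Most of it was DCN, at 117 to 286 CPM, and its part in the results was not tested. The epithelial markers did not hold 1 level. In 3D mean CDH1 went from 182 to 61.5 and 46 CPM at timepoints 1, 2 and 3, while mean TP63 went from 27.1 to 42.2 and 50.9 CPM. In 2D mean CDH1 also fell, from 217 to 135 and 108 CPM, and mean TP63 also rose, from 22.3 to 53.8 and 59.9 CPM. In such bulk samples, fewer cells expressing a gene and less RNA per cell cannot be told apart.

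COPII vesicles carry newly made proteins out of the ER. The GTPase SAR1 is loaded with GTP at the ER membrane and recruits the inner coat of SEC23 and SEC24, which selects cargo, and then the outer cage of SEC13 and SEC31. COPI vesicles form on the Golgi when ARF GTPases recruit the 7-subunit coatomer, and they return escaped ER proteins and cargo receptors. Epithelial cells depend on both coats to deliver adhesion proteins and secreted matrix.

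Promoter sequence played no part in choosing the genes, but the motifs searched belong to secretory stress and so relate to the function of these genes. The windows compared were not matched for G and C content. The shares below are therefore a description and no test. RefSeq windows from 250 bases before to 50 bases after an annotated start (build GRCh38.p14) were found for 34 of the 39 genes, as 46 windows in all. A pair of 7-base motifs of secretory stress was searched on both strands. TGACGTG is the core of the unfolded protein response element, and ACGTGGC is the Golgi stress response element. They overlap in 5 letters and can be read as 1 run, TGACGTGGC. TGACGTG was present for 12 of the 34 genes (35.3%) and for 3.1% of the 11556 tested genes with a window. ACGTGGC was present for 17 of the 34 (50%) and for 5.32% of those tested genes. Both were found for 8 of the 34 (23.5%) against 0.666%. Genes with several annotated starts have more windows. Among genes with a single window the shares were 7 of 26 (26.9%) against 2.38% for TGACGTG, and 11 of 26 (42.3%) against 4.32% for ACGTGGC. The longer ER stress elements, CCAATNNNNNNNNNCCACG and ATTGGNCCACG, were in none of the 34, and in 0.138% and 0.121% of tested genes. A match is a description of letters and not a binding site, and no match says only that these letters are not in the window.

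The stretches below are shown because they hold both motifs as 1 run, or, for SEC31A and TMED2, because the gene is described further on. Each is 27 bases, read in the direction of its gene, with the matched letters in capitals.
SEC23A (chr14:39103223-39103249): cccctcctctTGACGTGGCagaggcgg
SEC24A (chr5:134648596-134648622): tgagagtcggTGACGTGGCggcgaggc
SEC16A (chr9:136484708-136484734): gccctggtGCCACGTCAgccggactga
ARF1 (chr1:228082682-228082708): ccggaggcgcTGACGTGGCcgccgtca
STX5 (chr11:62832051-62832077): tacgtgtaggTGACGTGGCcgcttcca
KDELR3 (chr22:38468041-38468067): ccgccctgGCCACGTCAccgcccggcc
SEC31A (chr4:82900603-82900629): ccaatgacagGCCACGTtgtgtcccag
TMED2 (chr12:123584447-123584473): gcctccctttACGTGGCagctgcggga
In SEC16A and KDELR3 the run lies on the opposite strand. SEC31A has 4 windows, each with a match, and the stretch shown is from the first. All of them lie outside the interval given for SEC31A further on. SEC16A and ARF1 have 3 windows each, and only the first holds a match. The whole window of KDELR3, the gene with the largest called change among genes counted in every group, is chr22:38467846-38468145 on the forward strand.
KDELR3: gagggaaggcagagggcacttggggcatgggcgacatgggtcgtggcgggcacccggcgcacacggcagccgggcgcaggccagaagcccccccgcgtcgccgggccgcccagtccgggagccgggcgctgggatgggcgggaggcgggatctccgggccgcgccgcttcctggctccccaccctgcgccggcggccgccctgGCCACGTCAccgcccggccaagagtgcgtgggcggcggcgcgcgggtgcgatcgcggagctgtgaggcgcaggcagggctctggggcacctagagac
The run sits within the 50 bases before the start, and the window is 78.3% G and C. As a description with no test, 3D against 2D, the median log2 fold change of the 21 genes with either motif was -0.01 at timepoint 2 and 0.13 at timepoint 3, and that of the 13 genes with neither was 0.01 and 0.16. From timepoint 1 to timepoint 2 in 3D the medians were -0.15 and 0.09. BET1 and GOSR2, described further on, have neither motif in their windows.

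Few of the 39 genes differed between the cultures by more than their spread. By edgeR's quasi-likelihood test with Benjamini-Hochberg adjustment over 18592 genes (adjusted p under 0.05), none of them was called in 3D against 2D at timepoint 1, 2 or 3, where 0%, 1.49% and 1.5% of all genes were. At an unadjusted p under 0.05 there were 0, 5 and 6 of the 39, against 1.31%, 20.1% and 19.1% of all genes. DESeq2 called 0, 1 (BET1) and 2 (KDELR3 and BET1), against 0%, 7.19% and 5.46%. Once the replicate number entered as a block, which takes the shared date into account, 0 were called at timepoint 1, 3 at timepoint 2 (KDELR3, BET1 and GOSR2) and 4 at timepoint 3 (SAR1B, TMED2, KDELR3 and BET1), each of them higher in 3D. That is 0%, 7.69% and 10.3% of the 39, beside 0%, 15.9% and 9.75% of all genes.

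Fold changes were small at each timepoint. At timepoint 1 all 39 genes lay within 0.3 of 0 on the log2 scale, as did 79.9% of all genes. At timepoints 2 and 3 it was 28 and 25 of the 39, against 44.5% and 40.7%. All genes include many of lower level and wider spread. The median SD within groups was 0.22 for the 39, 0.36 over all genes and 0.26 over genes with a mean of at least 10 CPM. Shares within 0.3 were not computed for genes of similar level. The median over the 39 was 0.03, 0.01 and 0.15 at timepoints 1, 2 and 3, against 0.00, -0.03 and 0.02 over all genes. Scaling by the totals in the file headers moved the median of all genes at timepoint 2 by -0.20, and the number of the 39 above 0 there from 21 to 13. The plot of culture differences with their intervals shows how many of the 39 straddle 0.

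**Figure D1:**
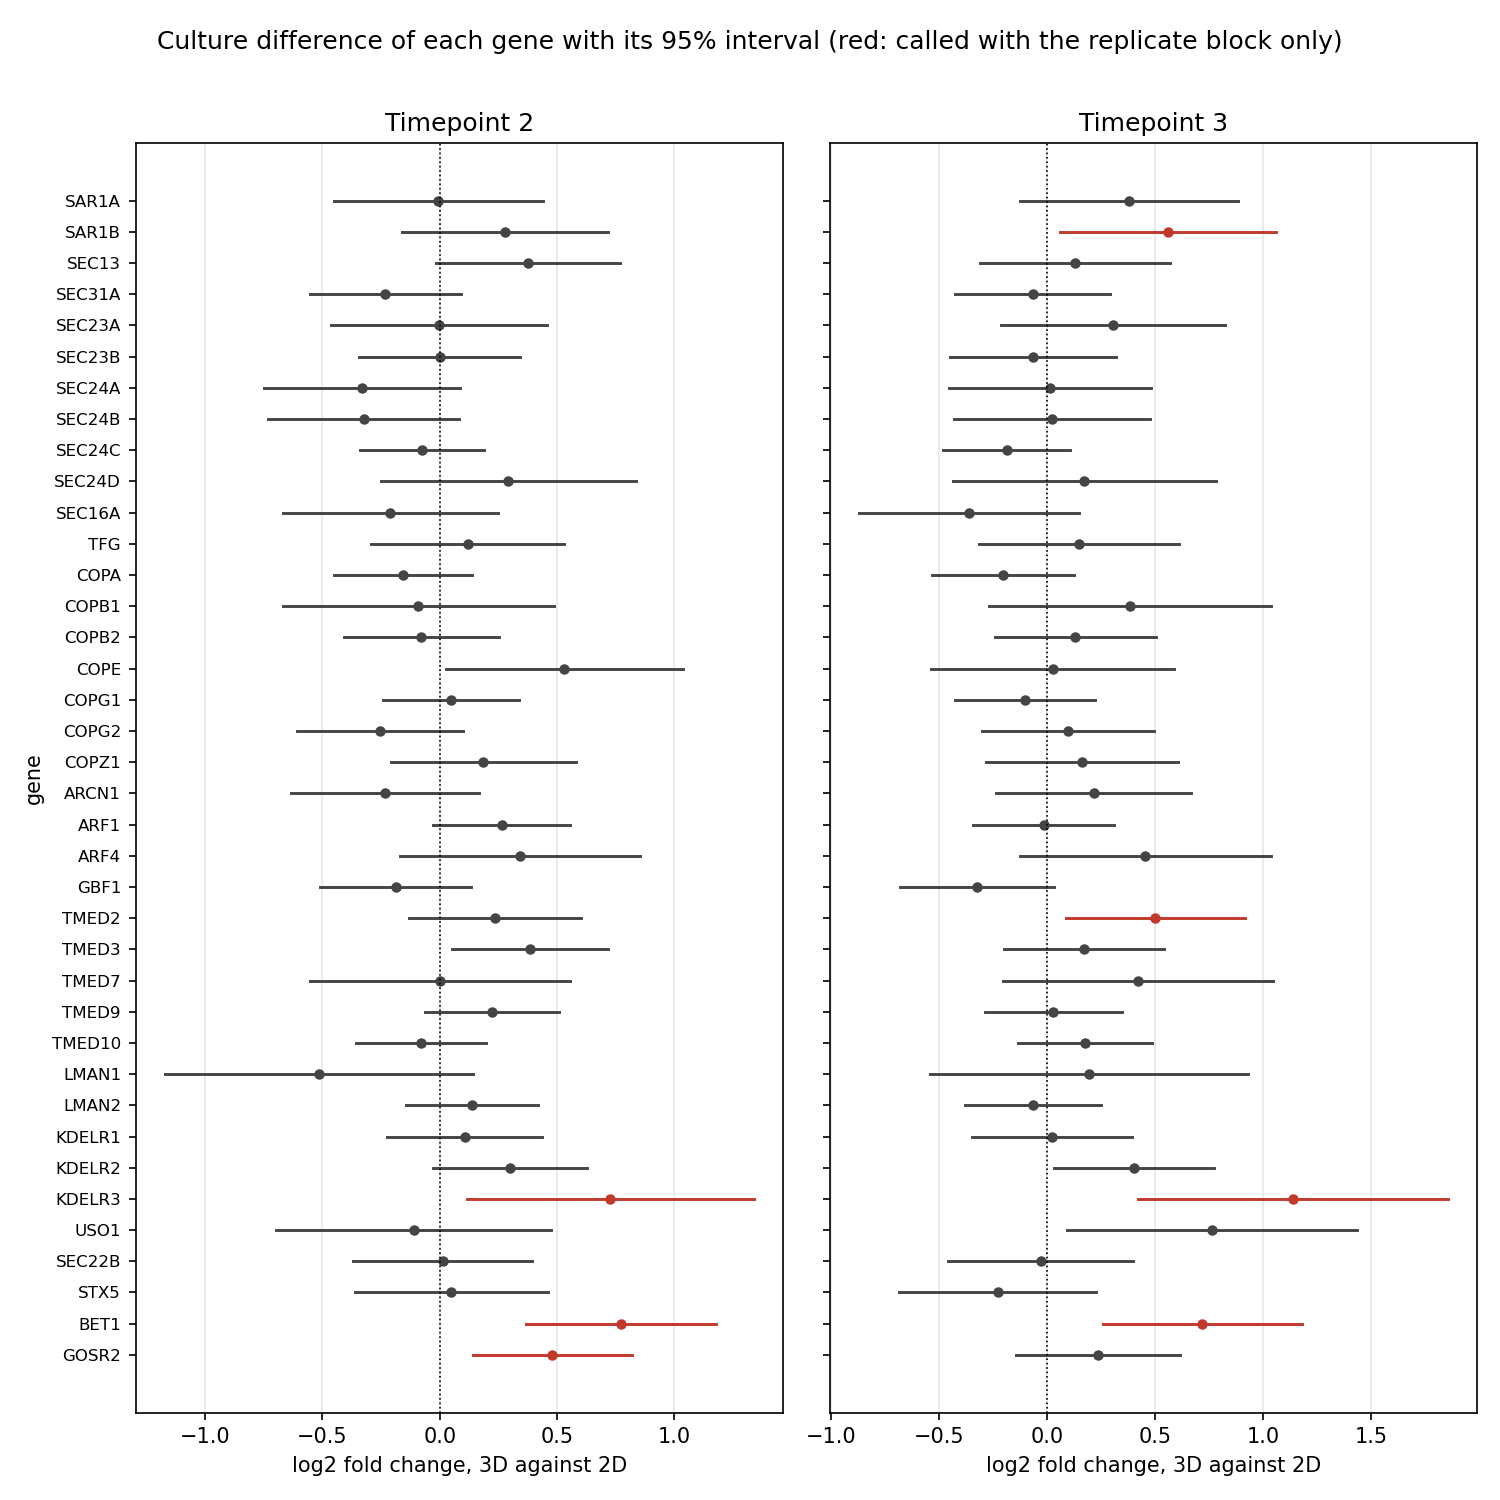
Log2 fold change of 38 genes in 3D against 2D at timepoint 2 (left) and timepoint 3 (right), with points for edgeR's estimate and lines for its 95% interval; COPZ2, which has almost no counts, is left out. Red marks the 3 genes at timepoint 2 and 4 at timepoint 3 that edgeR called with the block and not without it, each to the right of 0.

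With time, calls among the 39 genes came from 3D in the fit without the block. In 3D, 3 of the 39 genes were called at timepoint 2 against timepoint 1 (KDELR3 and GOSR2 higher, SEC31A lower), or 7.69%, where 15.1% of all genes were called. At timepoint 3 against timepoint 1, 2 were called (GOSR2 and COPZ2, both higher), or 5.13%, against 11% of all genes. With the block there were 8, beside 28.4% of all genes, and 5, beside 23.9%. The 8 were KDELR3, GOSR2, BET1 and TMED3, which were higher, and SEC31A, SEC24B, TMED7 and LMAN1, which were lower. The 5 were KDELR3, GOSR2, SAR1B and COPZ2, which were higher, and SEC31A, which was lower. DESeq2 called 5 at timepoint 2 (SEC31A, COPZ2, LMAN1, KDELR3 and GOSR2), beside 19.7% of all genes. At timepoint 3 it called 4 (SEC31A, COPZ2, STX5 and GOSR2), beside 15.2%.

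In 2D no member was called at timepoint 2 or 3 against timepoint 1, where 5.87% and 4.86% of all genes were called. The counts at an unadjusted p under 0.05 were 5 and 3, against 18.5% and 19.1%. DESeq2 called 2 (SEC24D and COPZ2) and 0, against 9.53% and 8.54%. With the block SEC24D was lower and KDELR3 higher at timepoint 2, and none was called at timepoint 3, against 13.7% and 10.5% of all genes. Whether the time course differed between 2D and 3D was tested by the interaction of culture and time. None of the 39 was called for timepoint 2 or 3, where 0% and 0.183% of all genes were. With the block none was called either, against 1.31% and 1.56%. The same was true by DESeq2, against 0.156% and 0.753%. At an unadjusted p under 0.05, BET1 and GOSR2 passed for timepoint 2 and KDELR3 and BET1 for timepoint 3, against 8.73% and 8.27% of all genes.

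**Figure D2:**
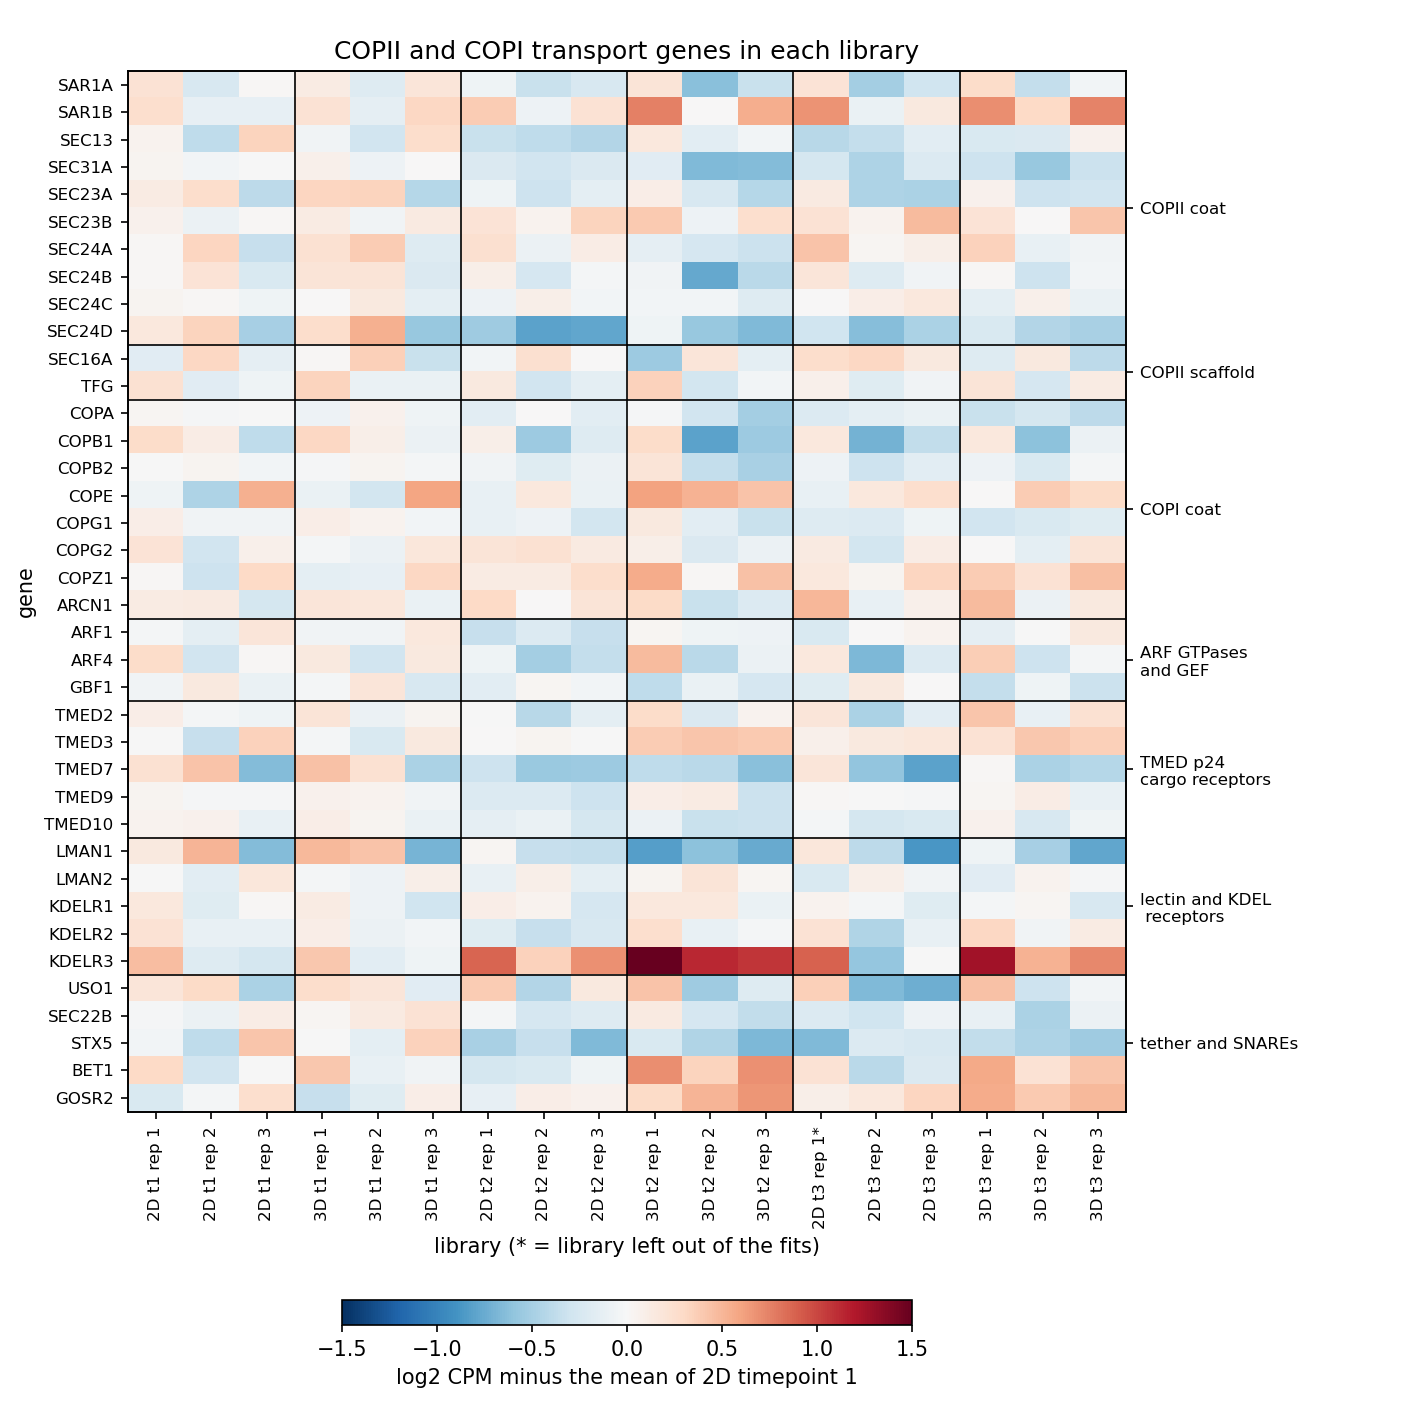
Log2 CPM of 38 genes (rows, by role; COPZ2 left out) in each of the 18 libraries (columns), as the difference from the gene's mean in 2D timepoint 1; red is higher and blue lower. KDELR3 is the reddest row in the 3 libraries of 3D timepoint 2 (1.07 to 1.79), and LMAN1, TMED7 and SEC24D are low in replicate 3 of both cultures at timepoint 1.

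Of the 10 COPII coat genes, SEC31A fell with time in 3D. SEC31A (chr4:82818672-82881937, reverse strand, hg38) encodes the larger subunit of the outer cage. At timepoint 1 it stood at 692, 651 and 670 CPM in 2D and 704, 634 and 674 CPM in 3D (replicates 1, 2 and 3). By timepoint 2 it was 579, 548 and 577 CPM in 2D and 598, 425 and 429 CPM in 3D. Every timepoint 2 library lay below every timepoint 1 library of its culture, and replicate 1 of 3D stood well above the other two. In 3D this was a log2 fold change of -0.47 (SE 0.15, adjusted p = 0.0474, and 0.00664 with the block), and without any single 3D library of these timepoints other than replicate 1 of timepoint 2 the adjusted p rose to between 0.0609 and 0.152. At timepoint 3 SEC31A stood at 542, 451 and 538 CPM in 3D, -0.39 against timepoint 1 (adjusted p = 0.11, and 0.021 with the block), and at 488 and 581 CPM in 2D, with 561 CPM in the library left out. Between cultures it was -0.23 at timepoint 2, with a 95% interval of -0.55 to 0.09.

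Of the inner coat genes, SEC24D and SEC24B passed in a comparison, both lower and both with the block. SEC24D, a cargo-selecting subunit, stood at 46.4, 52.3 and 29.4 CPM in 2D at timepoint 1 and at 28.6, 23.9 and 24.2 CPM at timepoint 2. All 3 later values lay below the 3 earlier ones, although the lowest earlier value, that of replicate 3, was close to them. This log2 fold change was -0.74 (SE 0.26, adjusted p = 0.11), and it passed with the block (-0.71, adjusted p = 0.0333). In 3D SEC24D went from 49.8, 60.1 and 27.9 CPM to 39.6, 28 and 26.3 CPM, where the groups overlapped. SEC24B fell in 3D with the block only (-0.46, adjusted p = 0.0496; -0.45 and 0.128 without it), from 34.7, 34.9 and 26.2 CPM to 29.4, 17.8 and 23 CPM. SEC24A, SEC24C, SEC23A and SEC23B passed in no comparison with either fit.

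SAR1B, 1 of a pair of GTPases that start COPII assembly, was higher in 3D at timepoint 3 with the block. Its levels there were 35.2 and 41.9 CPM in 2D, 60.2 CPM in the 2D library left out, and 61.1, 46.2 and 63.1 CPM in 3D. The left-out library lay among the 3D values. The log2 fold change was 0.56 (SE 0.24, adjusted p = 0.214), and the block gave 0.45 (adjusted p = 0.0475). All 18 libraries together gave a blocked value of 0.33 (adjusted p = 0.126). From timepoint 1 to timepoint 3 in 3D, SAR1B rose by 0.45 with the block (adjusted p = 0.013; 0.181 without it). SEC24A and SAR1B share 385 exon bases on opposite strands in GENCODE 29, and the labels do not say whether counting used the strand. SEC13, the smaller cage subunit, stood at 214, 208 and 200 CPM in 2D and 302, 242 and 263 CPM in 3D at timepoint 2 without overlap. Its log2 fold change of 0.38 did not pass (SE 0.19, adjusted p = 0.269, and 0.0867 with the block). At timepoint 1, SEC13 had been at 279, 207 and 342 CPM in 2D and 261, 221 and 324 CPM in 3D.

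SEC16A and TFG, which organise the ER exit sites where COPII forms, passed in no comparison with either fit. SEC16A was lower in 3D than in 2D on each of the 3 dates at timepoints 2 and 3. It was lower by 0.51, 0.05 and 0.15 and by 0.46, 0.16 and 0.55 on the log2 scale. The 0.46, of replicate 1 at timepoint 3, used the 2D library left out of the fits. Without that library the fitted values of SEC16A were -0.21 and -0.36. TFG differed between cultures by 0.12 at timepoint 2 and 0.15 at timepoint 3. It followed the replicate number more than any other of the 39: 82.2% of its sum of squares over the 17 libraries lay between replicate numbers after the groups were taken out, and 8.48% between groups.

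No COPI coat gene other than COPZ2 was called in any comparison. None of the 9 was called between cultures with either fit, and 8 of them, those other than COPZ2, lay between -0.25 and 0.53 at timepoint 2 and between -0.20 and 0.38 at timepoint 3. COPA, the largest coatomer subunit, stood at 787, 882 and 789 CPM in 2D and 871, 720 and 616 CPM in 3D at timepoint 2. These groups overlapped. COPE, a small subunit of the outer coatomer, had the widest culture difference of the 8, with 177, 212 and 178 CPM in 2D and 289, 275 and 257 CPM in 3D at timepoint 2. These groups did not overlap, and the log2 fold change was 0.53 (SE 0.24, adjusted p = 0.224, and 0.105 with the block). At timepoint 1, COPE had ranged from 138 to 275 CPM in 2D and from 157 to 287 CPM in 3D, as wide as that difference. COPB1, COPB2, COPG1, COPG2, COPZ1 and ARCN1 passed in no comparison.

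COPZ2 (chr17:48026167-48029425, reverse strand), a second form of the coatomer zeta subunit, was close to absent. It had 0 counts in all 6 libraries of timepoint 1, and 77 counts over the 3 libraries of 3D timepoint 3 (0.181, 0.599 and 0.39 CPM). Because the counts are not single reads, a count of 0 sets no lower limit for the fold change from 3D timepoint 1, and none is given. COPZ2 was called in this comparison (adjusted p = 0.0224, and 0.0171 with the block). The call was lost without replicate 1 or 2 of 3D timepoint 1 or replicate 2 or 3 of 3D timepoint 3 (adjusted p from 0.0507 to 0.0718). The 2D libraries held 0, 0.376 and 0.111 CPM at timepoint 2 and 0 and 0.16 CPM at timepoint 3, with 0.252 CPM in the library left out. COPZ1, the common form, ranged from 142 to 220 CPM over the 6 libraries of timepoint 1 and from 180 to 260 CPM over the 12 later ones.

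**Figure D3:**
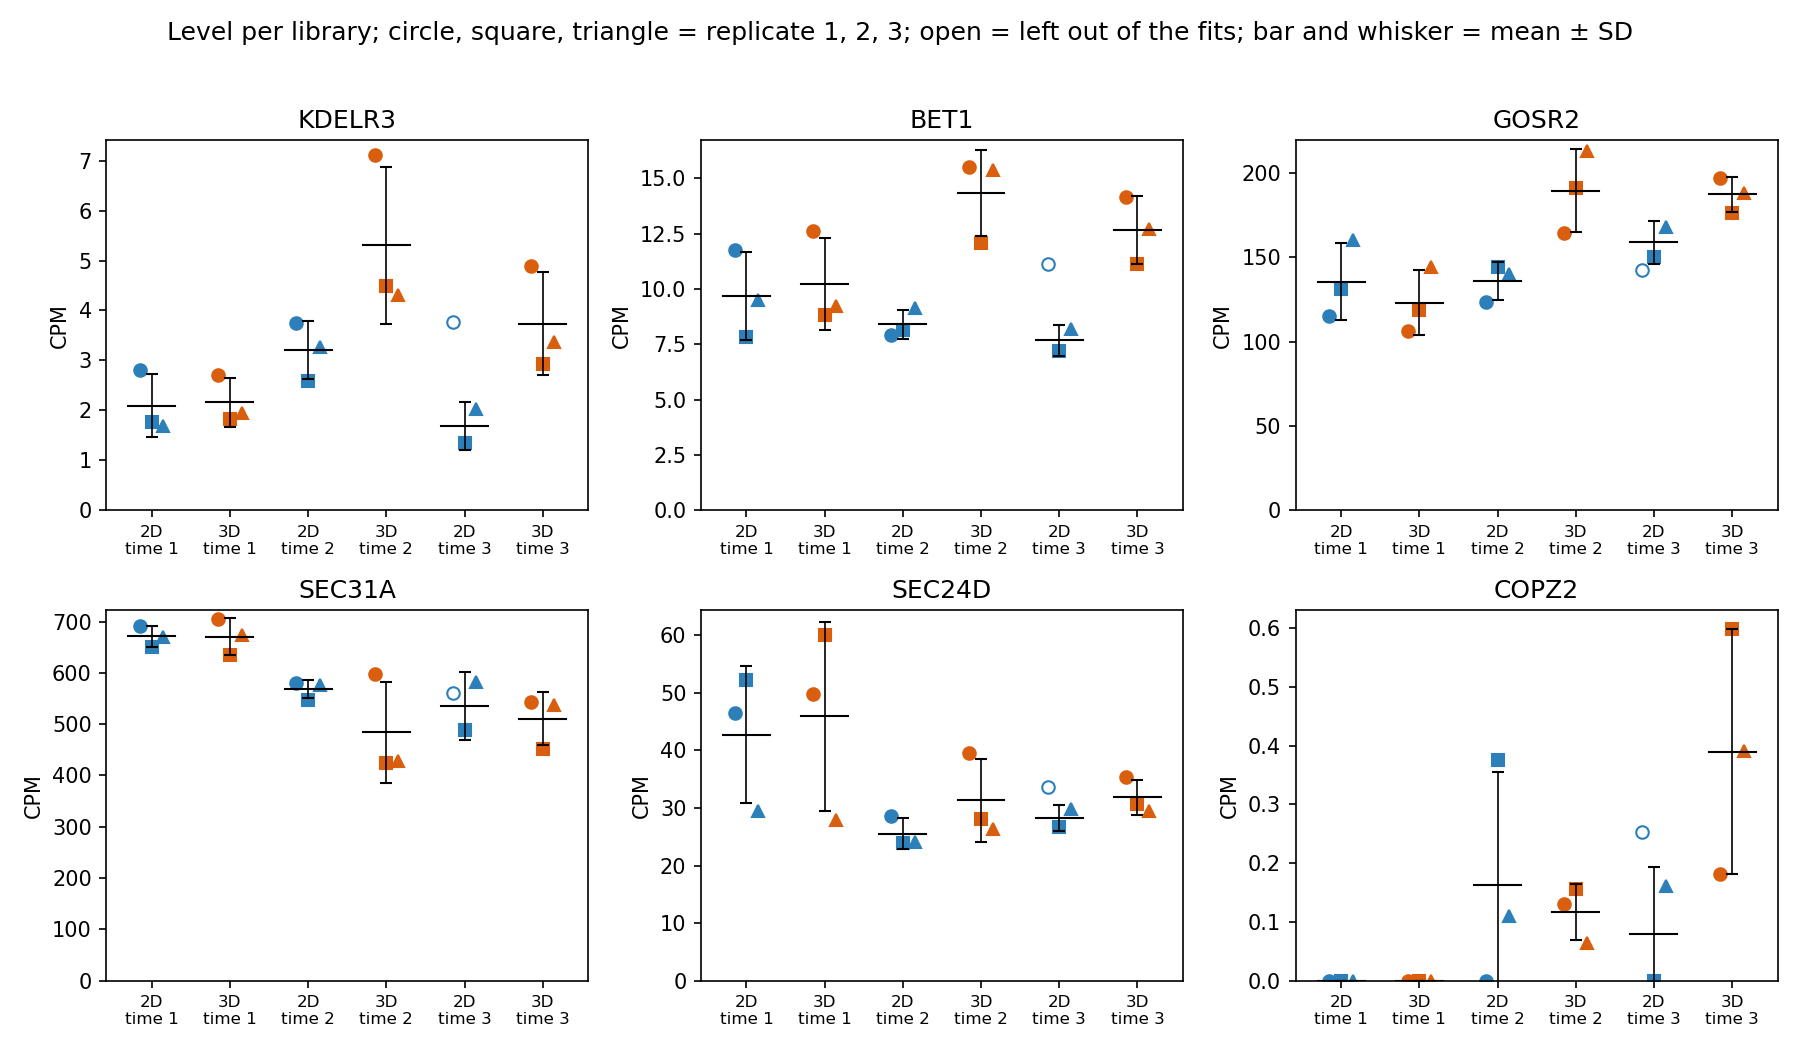
Level in CPM (y axis, from 0) of 6 genes in each library, by culture and timepoint; blue is 2D, orange 3D, shapes are replicates 1, 2 and 3, the open circle is the 2D library left out of the fits, and bars are mean ± SD of the fitted libraries (n = 3, and 2 in 2D timepoint 3). KDELR3, BET1 and GOSR2 sit higher in 3D than in 2D at timepoint 2 without overlap, and the open circle of KDELR3 and BET1 reaches the range of the 3D libraries at timepoint 3.

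ARF1 and ARF4, GTPases that bring coatomer to the membrane, and GBF1, which loads them with GTP, passed in no comparison. At timepoint 2, ARF1 stood at 897, 988 and 898 CPM in 2D and at 1163, 1092 and 1086 CPM in 3D. The groups did not overlap, and the log2 fold change was 0.26 (SE 0.14, adjusted p = 0.295). ARF4 was at 161, 118 and 131 CPM in 2D and 235, 127 and 158 CPM in 3D, and its fitted value was 0.34 (95% interval -0.18 to 0.86). GBF1 was lower in 3D on each of the 3 dates at timepoints 2 and 3, by 0.13 to 0.22 and 0.18 to 0.34. The 0.18, of replicate 1 at timepoint 3, used the 2D library left out of the fits. Without that library the fitted values of GBF1 were -0.19 and -0.33.

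Among the p24 family, which pairs cargo with both coats, TMED2 and TMED3 stood out. TMED2 was at 113, 84.9 and 102 CPM in 2D and 137, 97.3 and 118 CPM in 3D at timepoint 2, and at 81.5 and 102 CPM (128 CPM in the library left out) and 151, 105 and 133 CPM at timepoint 3. Within each date the 3D library was the higher one. At timepoint 3 the log2 fold change was 0.50 (SE 0.20, adjusted p = 0.185), and 0.40 with the block (adjusted p = 0.0393). All 18 libraries with the block gave 0.33 (adjusted p = 0.0687). TMED3 was at 94, 96.7 and 93 CPM in 2D and 122, 125 and 123 CPM in 3D at timepoint 2. The groups were tight and did not overlap, but the log2 fold change of 0.38 did not pass (SE 0.16, adjusted p = 0.187, and 0.0656 with the block). TMED3 had been at 91.9, 80.2 and 104 CPM in 3D at timepoint 1 and rose from there to timepoint 2 with the block (0.43, adjusted p = 0.0272; 0.0792 without it).

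TMED7 fell over the same interval with the block only (-0.55, adjusted p = 0.0447; -0.58 and 0.145 without it), from 22.5, 19.4 and 11.9 CPM to 12.7, 12.5 and 10.7 CPM. Replicate 3 at timepoint 1 was already in the later range. Of its exon bases, 24% are shared on the same strand with the readthrough gene TMED7-TICAM2, so reads of the pair may have been split. TMED9 and TMED10 passed in no comparison.

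KDELR3 changed most among the receptors. KDEL receptors recognise the C-terminal tag of ER chaperones that have escaped to the Golgi and return them with COPI. KDELR3 (chr22:38468096-38483447, forward strand) was at 2.82, 1.77 and 1.68 CPM in 2D and 2.71, 1.82 and 1.95 CPM in 3D at timepoint 1. By timepoint 2 it stood at 3.76, 2.59 and 3.28 CPM in 2D and 7.12, 4.49 and 4.31 CPM in 3D. Timepoint 3 gave 1.35 and 2.03 CPM in 2D, 3.77 CPM in the 2D library left out, and 4.9, 2.93 and 3.37 CPM in 3D. The cultures overlapped at timepoint 1 and separated at timepoint 2, and at timepoint 3 they separated among the fitted libraries only.

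In 3D the rise from timepoint 1 to timepoint 2 was 1.30 on the log2 scale (SE 0.29, adjusted p = 0.00837, and 6.39e-05 with the block). Without the block, it was the only call among the 39 that no left-out library removed. At timepoint 3 KDELR3 was still higher than at timepoint 1 in 3D with the block (0.78, adjusted p = 0.0029; 0.79 and 0.0948 without it). Against 2D, KDELR3 was higher in 3D by 0.73 at timepoint 2 (SE 0.29, adjusted p = 0.177) and 1.14 at timepoint 3 (SE 0.34, adjusted p = 0.106), and both passed with the block (0.70, adjusted p = 0.00993, and 0.92, adjusted p = 0.00772). With the 2D library left out put back, the timepoint 3 value was 0.65 (adjusted p = 0.502), and 0.70 with the block (adjusted p = 0.036). It also rose in 2D from timepoint 1 to 2 with the block (0.64, adjusted p = 0.0155; 0.273 without it).

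KDELR1 and KDELR2, the other two receptors, passed in no comparison. KDELR1 held a narrow range, 107 to 148 CPM over all 18 libraries. KDELR2 was at 54.5 and 69 CPM in 2D (86.8 CPM in the library left out) and 92.1, 71.5 and 81 CPM in 3D, both at timepoint 3, with a log2 fold change of 0.40 (SE 0.18, adjusted p = 0.228, and 0.0841 with the block). It shares 9.4% of its exon bases with DAGLB on the same strand. LMAN1 and LMAN2 are lectins that carry glycoproteins forward from the ER. LMAN1 was at 39.3, 37.8 and 17.2 CPM in 3D at timepoint 1 and 15.8, 18.3 and 16.6 CPM at timepoint 2, so that replicate 3 of timepoint 1 lay within the later range. The log2 fold change was -0.90 (SE 0.31, adjusted p = 0.0628), and it passed with the block (-0.81, adjusted p = 0.0161). LMAN2 stayed between 181 and 241 CPM in all 18 libraries.

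**Figure D4:**
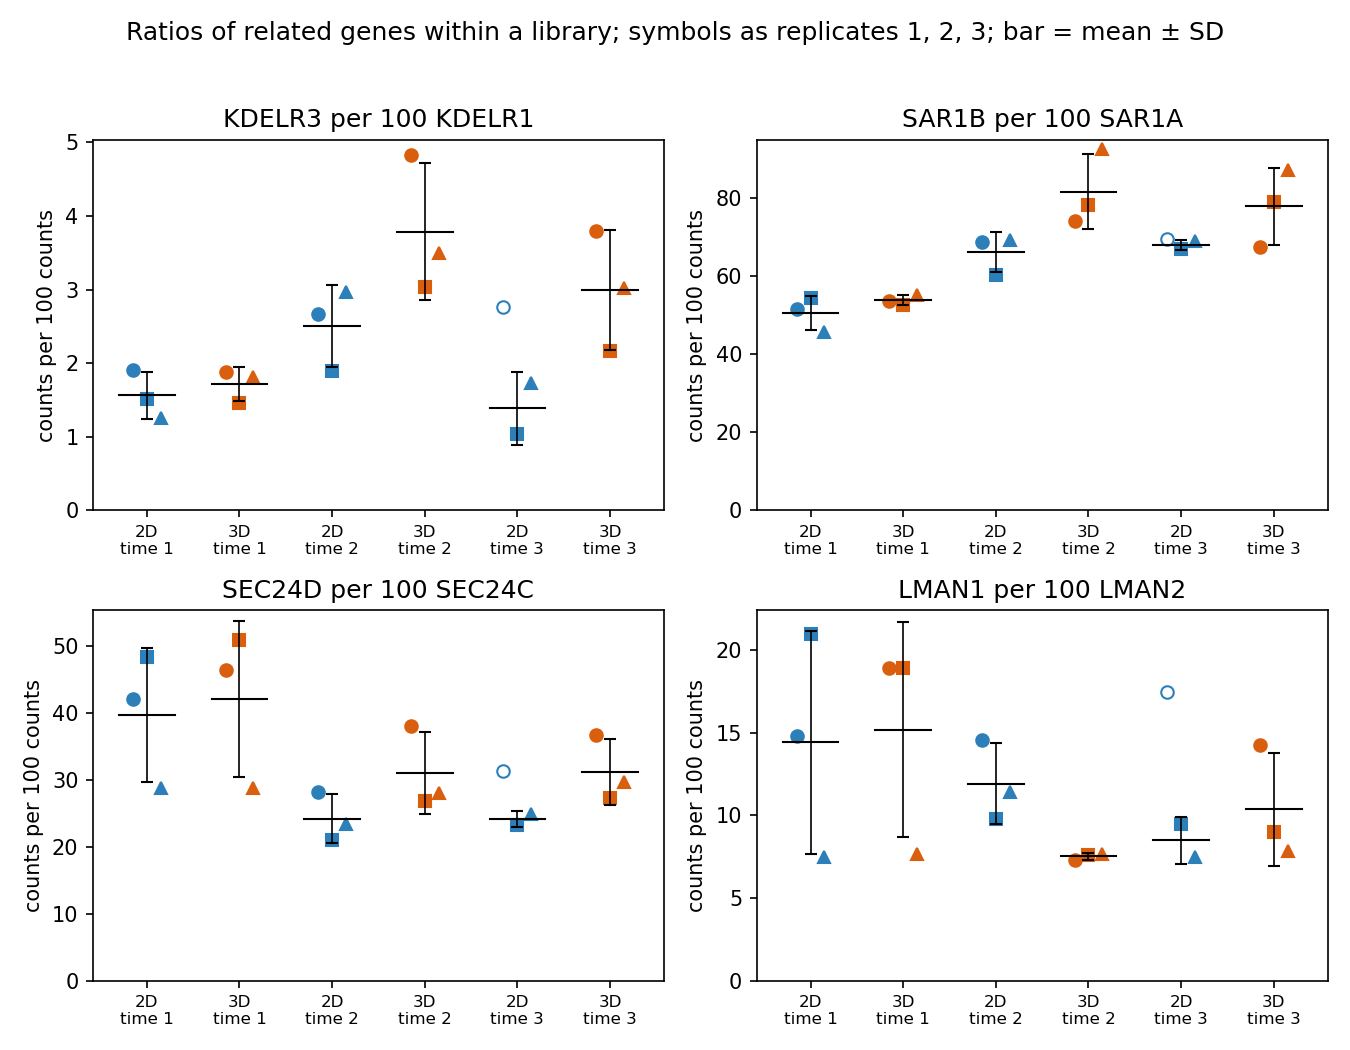
Counts of a gene per 100 counts of its relative in the same library (y axis, from 0), by culture and timepoint, with colours and symbols as in the plot of levels; bars are mean ± SD. KDELR3 per 100 KDELR1 and SAR1B per 100 SAR1A reach higher at timepoints 2 and 3 than at timepoint 1 in 3D. There SEC24D per 100 SEC24C has a lower mean at timepoints 2 and 3, with libraries that overlap those of timepoint 1.

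Ratios of related genes within a library do not depend on how libraries are scaled. They were computed from counts, so only their change between groups has a meaning. KDELR3 per 100 counts of KDELR1 went from 1.72 ± 0.23 at timepoint 1 to 3.79 ± 0.94 and 2.99 ± 0.81 at timepoints 2 and 3 in 3D (SD, n = 3), and from 1.56 ± 0.33 to 2.51 ± 0.55 (n = 3) and 1.39 ± 0.49 (n = 2) in 2D. SAR1B per 100 SAR1A went from 53.8 ± 1.36 to 81.6 ± 9.61 and 77.8 ± 9.8 in 3D, and from 50.5 ± 4.39 to 66 ± 5.07 and 67.9 ± 1.37 in 2D. In both cultures every later library was above every library of timepoint 1. SEC24D per 100 SEC24C went from 39.8 ± 10 to 24.2 ± 3.69 in 2D and from 42.1 ± 11.7 to 31 ± 6.1 in 3D by timepoint 2. In 3D these groups overlapped. SEC24C shares 42.9% of its exon bases with AC022400.8 on the opposite strand, so its counts may depend on whether counting used the strand. LMAN1 per 100 LMAN2 was 15.2 ± 6.52 at timepoint 1 in 3D and 7.52 ± 0.21 at timepoint 2, a change in spread as well as in mean. COPG2 per 100 COPG1 was 16.4 ± 0.71 in 2D and 13.4 ± 1.7 in 3D at timepoint 2 without overlap, and 13.4 ± 1.66 and 15.5 ± 1.61 at timepoint 3.

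BET1 and GOSR2 are SNAREs of the complex, with STX5 and SEC22B, by which vesicles from the ER fuse on the Golgi side. BET1 (chr7:93993245-94004355, reverse strand) was at 7.93, 8.13 and 9.13 CPM in 2D and 15.5, 12.1 and 15.4 CPM in 3D at timepoint 2. It had been at 11.7, 7.81 and 9.49 CPM and 12.6, 8.85 and 9.22 CPM at timepoint 1, where the cultures overlapped. At timepoint 2 the lowest 3D library was above the highest 2D library. Between cultures the log2 fold change was 0.77 (SE 0.19, 95% interval 0.37 to 1.18, adjusted p = 0.0537), and 0.76 with the block (adjusted p = 0.00309). In 3D alone BET1 rose from timepoint 1 to timepoint 2 with the block (0.49, adjusted p = 0.014; 0.0953 without it).

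At timepoint 3 BET1 was at 7.19 and 8.18 CPM in 2D, 11.1 CPM in the library left out, and 14.2, 11.1 and 12.7 CPM in 3D. The 3D libraries were again higher on each date. The log2 fold change was 0.72 (SE 0.22, adjusted p = 0.113), and 0.63 with the block (adjusted p = 0.0212). All 18 libraries gave a blocked value of 0.53 (adjusted p = 0.0369). The blocked calls at timepoint 3 rest on few libraries: with the libraries of any 1 replicate number taken out of every group, none of the 4 passed. At timepoint 2 BET1 passed without replicate 2 or 3, KDELR3 without replicate 3, and none passed without replicate 1.

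GOSR2 (chr17:46923120-46941143, forward strand) rose with time in 3D. Its 3D levels were 106, 119 and 144 CPM at timepoint 1, 164, 191 and 213 CPM at timepoint 2 and 197, 176 and 188 CPM at timepoint 3. All later 3D libraries lay above the 3 earlier ones. Against timepoint 1 the log2 fold change was 0.62 at timepoint 2 (SE 0.16, adjusted p = 0.0168, and 0.00114 with the block) and 0.61 at timepoint 3 (SE 0.16, adjusted p = 0.0221, and 0.00125 with the block). Without replicate 1 or 2 of 3D timepoint 1 or replicate 3 of 3D timepoint 2, the first had an adjusted p of 0.0652 to 0.0817. With the block it passed without any 1 replicate number (adjusted p from 0.011 to 0.0347). The second had one of 0.0657 to 0.101 without replicate 1 or 2 of timepoint 1, or replicate 1 or 3 of timepoint 3. In 2D GOSR2 was at 115, 131 and 160 CPM, then 123, 144 and 140 CPM, then 150 and 168 CPM, with 142 CPM in the library left out. Between cultures it differed by 0.48 at timepoint 2 (SE 0.16, adjusted p = 0.115), and with the block this passed (0.47, adjusted p = 0.0137). A gene on the same strand, AC005670.2, covers 5.1% of its exon bases.

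STX5, SEC22B and the tether USO1 passed in no edgeR comparison, blocked or not, though DESeq2 called STX5 lower at timepoint 3 in 3D. STX5 was at 51.5, 46.5 and 65.7 CPM in 3D at timepoint 1 and 43.9, 37.6 and 32.3 CPM at timepoint 2, and its log2 fold change was -0.52 (SE 0.19, adjusted p = 0.0813, and 0.0519 with the block). USO1, which holds vesicles at the Golgi before fusion, was at 19.9 and 18.9 CPM in 2D (40.2 CPM in the library left out) and 42.8, 25.4 and 30.6 CPM in 3D at timepoint 3. Its log2 fold change of 0.76 (SE 0.32, adjusted p = 0.209) fell to 0.33 with all 18 libraries. SEC22B stayed between 3.23 and 5.25 CPM.

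At timepoint 1, where no gene was called, the 6 genes with the smallest p were GOSR2, SEC22B, SEC24A, SAR1B, KDELR1 and SEC23A, with log2 fold changes of -0.14, 0.13, 0.13, 0.13, -0.08 and 0.09. SEC23A was at 68, 74.8 and 47.7 CPM in 2D and 77.8, 78.8 and 46.2 CPM in 3D, low in replicate 3 of both. LMAN1, at 31, 39.9 and 17.8 CPM in 2D and 39.3, 37.8 and 17.2 CPM in 3D, did the same. Over the 39 genes the median share of the sum of squares between groups was 42.3% (47% over all genes), and between replicate numbers after the groups it was 29.1% (18.8%). Over genes with a mean of at least 10 CPM these shares were 50% and 22.8%.

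Other genes of the route were examined in lists of neighbouring function. None of the 93 genes tested (8 of COPII exit, 15 cargo receptors, 12 ARF and COPI factors, 15 SNARE factors, 32 tethers and 11 regulators) was called between cultures at timepoints 1, 2 or 3, where 0, 21 and 18 had an unadjusted p under 0.05 and DESeq2 called 0, 6 and 4. At timepoints 2 and 3 these are 22.6% and 19.4%, and by DESeq2 6.45% and 4.3%, beside 20.1% and 19.1%, and 7.19% and 5.46%, of all genes. With the block 1, 3, 0, 6, 7 and 2 of them were called at timepoint 2, and 0, 2, 0, 1, 3 and 4 at timepoint 3, in all 19 (20.4%) and 10 (10.8%) of the 93, beside 15.9% and 9.75% of all genes. The shares of the 93 together are near those of all genes. Single lists differed more: with the block, 6 of 15 SNARE factors and 0 of 12 ARF and COPI factors were called at timepoint 2. At timepoint 3 it was 4 of 11 regulators. The lists are short and none was tested as a set, so the genes named next only describe them. At timepoint 2 these were PDCD6 (0.43) for exit, and CNIH4, CNIH1 and ERGIC3 (0.59, 0.43 and 0.62) among cargo receptors. The SNARE factors with the smallest p were GOSR1 (-0.47), BNIP1 (0.54) and STX16 (-0.48), and the tethers were TRAPPC4 (0.63), GOLGA2 (-0.50) and TRAPPC9 (-0.49). The regulators were CREB3 (0.43) and ATF6 (-0.46). At timepoint 3 the cornichons CNIH1 and CNIH4 were again higher in 3D (0.56 and 0.49), with SEC22A (0.76) and TRAPPC13 (0.81), while GOLGA2 (-0.63) and TRAPPC9 (-0.46) were lower. All 4 regulators called there were lower, with ERN1, TFEB and XBP1 first (-1.39, -0.64 and -0.52). ERN1, XBP1 and ATF6 belong to the unfolded protein response, and TFEB is a relative of the Golgi and lysosome stress factor TFE3.

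With time, PREB was the most regular of these genes. PREB encodes SEC12, which loads SAR1 with GTP and so starts COPII assembly. It went from 36.4 ± 2.86 CPM to 59 ± 5.6 and 69 ± 4.22 CPM in 2D (SD, n = 3, 3 and 2) and from 41 ± 3.16 to 69.2 ± 1.4 and 72.1 ± 8.44 CPM in 3D (n = 3). In 2D 3 and 2 of the 93 were called at timepoints 2 and 3 (3.23% and 2.15%), beside 5.87% and 4.86% of all genes. PREB rose in each of the 4 time comparisons, by 0.70 and 0.92 in 2D and 0.76 and 0.81 in 3D (adjusted p = 0.00515, 0.00187, 0.00169 and 0.000932). In 2D at timepoint 2 NSF, the ATPase that takes SNARE complexes apart (0.95, adjusted p = 0.0109), and the tether subunit COG8 (0.52, adjusted p = 0.0286) also rose, and COG8 rose at timepoint 3 (0.77, adjusted p = 0.00614).

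In 3D at timepoint 2, 2 genes of exit, 1 cargo receptor, 1 SNARE factor, 7 tethers and 2 regulators were called, 13 of the 93 (14%) beside 15.1% of all genes. PDCD6 (0.65), ERGIC3 (0.82), TRAPPC1 (0.88) and TRAPPC4 (0.89) were higher, and GOSR1 (-0.58), TRAPPC9 (-0.54), ATF6 (-0.83) and CREB3L2 (-0.96) were lower. At timepoint 3, 7 of the 93 were called (7.53%) beside 11% of all genes. COG8 (0.58) and TRAPPC4 (0.73) were higher, and TRAPPC9 (-0.51), CREB3L2 (-1.06) and ATF6 (-0.60) were lower. None of the 12 ARF and COPI factors was called in a time comparison without the block; with it 3 passed in 3D at timepoint 2 and 2 at timepoint 3.

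In the authors' deposited table of each timepoint, 38 of the 39 genes are listed. BET1 at timepoint 2 is the only one with an adjusted p under 0.05 there (0.046), and at timepoint 3 the smallest is 0.105, again that of BET1. The signs in the authors' deposited table matched those of the fit for 38, 35 and 33 of the 38 at timepoints 1, 2 and 3, and the largest difference from the fitted log2 fold change was 0.09, at timepoint 2.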

How the data were processed

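The counts per gene were deposited by the authors without normalisation; per the submitters' processing notes STAR 2.7.1a, HOMER, edgeR and limma were used, with hg38 as the build; what each did is not stated. Annotation release, strandedness and counting rule: not given in the sources used here, so none is assumed. The sums exceed the header totals 4.73 to 5.73 times. A log2 CPM table was also deposited, of which only the library totals in its headers were used, and the authors' deposited tables of log2 fold changes and p-values were read for comparison; their limma score columns, per the file headers, were not used.

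Groups came from the sample titles, and 0 sample columns were left unused. Counts of 17 libraries in 6 groups were fitted together with edgeR 4.0.16 (R 4.3.3; TMM scaling, filterByExpr, quasi-likelihood test, Benjamini-Hochberg adjustment over 18592 genes), tested on simulated data. Per-library CPM used the same scaling. In the labels a replicate number marks the same date in every group. Over all genes, deviations of same-numbered 2D and 3D libraries correlated at 0.186 to 0.513 in the 8 pairs, so blocked values are given. Deviations were taken from each group's own mean, so the pairs of a timepoint are not independent of each other. Libraries with different numbers were not compared. Over the genes described here, the correlations of same-numbered libraries were 0.753, 0.899 and 0.908 at timepoint 1 (replicates 1, 2 and 3). They were 0.24, 0.675 and 0.01 at timepoint 2, and -0.351 and 0.43 at timepoint 3 (replicates 2 and 3). For these genes the pairing was therefore uneven at timepoints 2 and 3, where the blocked culture calls lie. Alternatives were DESeq2 1.42.0, other scalings, no filter, all 18 libraries and leaving out each library. Every called gene is named, with per-library values for those with the smallest p, and up to 3 called genes per further list. The genes and lists were chosen with earlier results of these data known.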

Additional observations from a re-analysis of the deposited data

How the results depend on the processing

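Calls among the 39 genes moved with the replicate block and with single libraries more than with scaling. With the replicate block they numbered 3 and 4 (3D against 2D, timepoints 2 and 3), 2 (2D, timepoint 2 against 1), and 8 and 5 (3D, timepoints 2 and 3 against 1), against 0, 0, 0, 3 and 2 without it. DESeq2 gave 1, 2, 2, 5 and 4 in these 5 comparisons. Without the filter on low counts there was 1 call at each of timepoints 2 and 3 between cultures, 2 and 1 in 2D, and 1 in 3D at timepoint 3; the cause was not tested.

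Leaving out each library in turn gave 0 to 1 calls in either 2D comparison, 1 to 7 in 3D at timepoint 2 and 0 to 4 in 3D at timepoint 3. The highest counts came without replicate 3 of 3D timepoint 1. In 3D at timepoint 2, KDELR3 alone passed without replicate 1 or 2 of 3D timepoint 1 or replicate 3 of 3D timepoint 2. In 3D at timepoint 3 none passed without replicate 1 or 2 of 3D timepoint 1 or replicate 3 of 3D timepoint 3. In 2D, STX5 passed without replicate 2 of timepoint 1, COPZ2 without replicate 1 of timepoint 2, and TMED7 (timepoint 3) without replicate 3 of timepoint 1.

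Blocked fits without each replicate number, chosen after seeing the data, called 0 to 2 and 0 genes between cultures at timepoints 2 and 3, 0 to 2 in 2D at timepoint 2, 2 to 7 in 3D at timepoint 2 and 0 to 5 in 3D at timepoint 3. With all 18 libraries and the block, 2 passed between cultures at timepoint 3. At timepoint 1, small uncalled differences changed sign without single libraries: SEC24A ran from -0.022 to 0.311, KDELR1 from -0.194 to 0.019 and SEC23A from -0.08 to 0.302.

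Scaling by header totals kept the sign and call of the genes with the smallest p in each comparison, but lowered the number of the 39 above 0 from 21 to 13 between cultures at timepoint 2 and from 15 to 10 in 3D at timepoint 2, and shifted all genes by -0.20 between cultures at timepoint 2 and by -0.12 in 3D at timepoint 2. Counts that are not single reads allow no counting interval, and for COPZ2 depth limits any comparison between cultures.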
